A study of Mus musculus with 6 samples.

Results

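Proteins that enter the secretory pathway fold in the endoplasmic reticulum (ER) with the help of chaperones. Calnexin (*Canx*) and calreticulin (*Calr*) are lectins that hold glycoproteins carrying a trimmed sugar, and ERp57 (*Pdia3*), a protein disulfide isomerase, works at their side. BiP (*Hspa5*) and GRP94 (*Hsp90b1*) bind unfolded stretches of many clients, and the isomerases ERp72 (*Pdia4*) and P5 (*Pdia6*) act on disulfides. Male germ cells make their own forms of these proteins: calmegin (*Clgn*), a calnexin homologue, calsperin (*Calr3*), a calreticulin homologue, and *Pdilt*, an isomerase homologue. Mice that lack any of these germ-cell chaperones are known to have sperm without mature ADAM3, a surface protein that sperm need to enter the oviduct and to bind the egg coat. *Prss55* encodes a serine protease of the testis that is anchored to the membrane by a GPI tail.

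The chaperones were followed in testis RNA of *Prss55*-/- and wt mice by every array probe whose gene name is one of 10 symbols. These were *Clgn*, *Calr3* and *Pdilt* as the 3 testis-specific genes and *Canx*, *Calr*, *Pdia3*, *Pdia4*, *Pdia6*, *Hspa5* and *Hsp90b1* as the 7 ubiquitous ones. They were measured by 17 probes, and all 17 were well above background on all 6 arrays, so none was lost to the filter on dim probes. The comparison ran over 28606 such probes of 19181 genes. The knockout was made by homologous recombination in ES cells and disrupts *Prss55* in the whole animal, and the colony was kept by intercrossing heterozygotes on a mixed 129Sv/C57BL/6 background. Each genotype gave 3 males aged 6 to 8 weeks, with 1 array for each mouse and no other treatment. Each value below is a quantile-normalized log2 signal, so that a difference of 1 is a 2-fold change, and levels are compared between mice for 1 probe and never between probes. All differences are *Prss55*-/- minus wt.

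The arrays of both genotypes were of similar quality, with 69.6% to 72.9% of spots well above background on the *Prss55*-/- arrays and 69.5% to 71.4% on the wt arrays. No slide held both genotypes: the *Prss55*-/- arrays shared 1 slide, wt replicates 1 and 2 another, and wt replicate 3 was alone on the last of the 3 slides, so that slide and genotype cannot be told apart. The *Prss55* probe itself read 15.08, 14.95 and 14.93 on the *Prss55*-/- arrays and 15.87, 15.77 and 16.01 on the wt arrays. The difference was -0.90 (standard error 0.080, limma adjusted p = 0.010), and the sources used here do not say whether the probe lies in the deleted part of the gene. The study reports *Prss55* as absent from the knockout, in RNA by RT-PCR and in protein by Western blot and immunofluorescence. What the signal left at this probe reads was not tested. All 23 markers of 4 stages of germ cells that the array carries were well above background on every array, and 4 of 6 epididymis markers were above it on none.

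The probes and the promoters show what was read and what the genes share. The probes of the 3 testis-specific genes and the pair of *Calr* probes carry the differences described below, and their first 30 bases are given on the sense strand, from the array files, on build mm9. The files place *Clgn* at chr8:85950608-85950667 on the plus strand, and *Calr3* at chr8:74948462-74948521 and *Pdilt* at chr7:126630135-126630194 on the minus strand. The *Calr* probes lie on the minus strand too, at chr8:87366192-87366251 (first base at position 1678 of the transcript) and at chr8:87368529-87368588 (position 719). Between the 17 probes of different chaperone genes the longest shared run was 10 bases, so no probe holds a long stretch of a paralogue's probe. Where the probes lie relative to exons and UTRs was not analysed here.
Clgn: ctaagtatctagcaatgttactctttcaga
Calr3: aactatagtcatcctcactctgcatgctga
Pdilt: acatcagtttctgagtggatctactctaac
Calr at 1678: caactctaggaacaggggtgtagaggagaa
Calr at 719: tggaggatgattgggaccttctgccgccca

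Many ubiquitous ER chaperones carry the ER stress response element (ERSE), to which NF-Y and ATF6 are known to bind when unfolded protein builds up. The element, CCAAT followed by any 9 bases and CCACG, was searched on both strands from 250 bases before to 50 bases after each start in the RefSeq promoters of build GRCm38.p6. It was present in 39 of 32851 promoters, or 0.119%. Of the 9 chaperone genes found in that table, 5 held the element, *Hsp90b1* in 2 copies. These were *Canx*, *Calr*, *Pdia6*, *Hspa5* and *Hsp90b1*. *Calr3*, *Pdilt*, *Pdia3* and *Pdia4* had no match in the window searched, which for *Calr3* held 209 bases before the start and for *Pdilt* 0, and *Clgn* was not among the promoters. The sites are printed as the element reads from 5′ to 3′, with its fixed ends in capitals. They lie at chr11:50325800-50325818 for *Canx*, chr8:84847075-84847093 for *Calr*, chr12:17266491-17266509 for *Pdia6* and chr2:34772025-34772043 for *Hspa5*, and at chr10:86705638-86705656 and chr10:86705533-86705551 for *Hsp90b1*.
Canx, 145 bases before the start: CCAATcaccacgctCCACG
Calr, 162 bases before, opposite strand: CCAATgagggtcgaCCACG
Pdia6, 98 bases before: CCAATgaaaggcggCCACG
Hspa5, 65 bases before: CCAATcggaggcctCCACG
Hsp90b1, 212 bases before: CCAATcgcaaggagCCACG
Hsp90b1, 107 bases before, opposite strand: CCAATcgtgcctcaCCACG

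The bases before the start are given whole for *Hspa5* (chr2:34771840-34772089, plus strand) and *Hsp90b1* (chr10:86705445-86705694, minus strand), the genes with the site closest to the start and with a pair of sites. They are also given for *Calr3* (chr8:72443820-72444028, minus strand), the testis-specific gene with the largest difference between genotypes. Each reads along the gene's own strand and the ERSE matches are in capitals. The shorter ERSE-II, which is ATTGG, any 1 base and CCACG, was found in 12 of these promoters (0.0365%) and the cAMP response element TGACGTCA in 588 (1.79%). Neither was found in the 9 chaperone genes among the promoters, where *Pdilt* had 0 bases before the start to search. *Clgn* could not be searched.
Hspa5: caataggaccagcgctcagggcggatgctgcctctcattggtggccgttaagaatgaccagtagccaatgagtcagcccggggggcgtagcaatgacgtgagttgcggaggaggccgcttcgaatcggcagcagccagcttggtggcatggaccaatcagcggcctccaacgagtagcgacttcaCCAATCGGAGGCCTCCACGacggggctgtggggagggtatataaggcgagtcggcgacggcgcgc
Hsp90b1: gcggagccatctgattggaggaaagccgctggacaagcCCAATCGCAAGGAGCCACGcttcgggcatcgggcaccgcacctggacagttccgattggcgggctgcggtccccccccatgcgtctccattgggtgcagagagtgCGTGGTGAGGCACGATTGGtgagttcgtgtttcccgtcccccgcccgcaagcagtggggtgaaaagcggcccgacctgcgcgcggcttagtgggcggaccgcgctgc
Calr3: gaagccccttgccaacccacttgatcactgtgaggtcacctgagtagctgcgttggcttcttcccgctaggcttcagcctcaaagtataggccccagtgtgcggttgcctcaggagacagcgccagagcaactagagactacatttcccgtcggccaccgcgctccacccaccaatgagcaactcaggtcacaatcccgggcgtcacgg

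None of the 10 chaperone genes passed the adjusted threshold. By the probe that was brightest over the 6 arrays, 0 of 10 had a limma adjusted p under 0.05, against 1.39% of all tested genes (267 of 19181), and 0 of the 17 probes did, against 1.21% of probes. At an unadjusted p under 0.05 there were 2 of 10, *Calr3* and *Pdilt*, against a background of 20.0%, and 4 of 17 probes, against 19.1%. The t-test named in the study's methods also gave 2 of 10 unadjusted and 0 of 10 after Benjamini-Hochberg adjustment. Over all 19181 tested genes that t-test gave 3487 unadjusted and 67 adjusted. The *Prss55*-/- and wt values did not overlap in 3 of 10 (*Calr3*, *Pdilt* and *Hspa5*), against 27.4% of all genes, and in 5 of 17 probes, against 26.3%. The shares of chaperone genes thus lay near those of all genes. Over the 10 brightest probes the 95% intervals of the difference reached from -0.37 to 0.25, or from 0.776-fold to 1.19-fold. The median difference was -0.033 over the 10 genes and -0.0023 over all tested genes, and the median absolute difference was 0.037 against 0.096. In RNA of whole testis, fewer cells of a type and less RNA in each cell cannot be told apart.

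**Figure D1:**
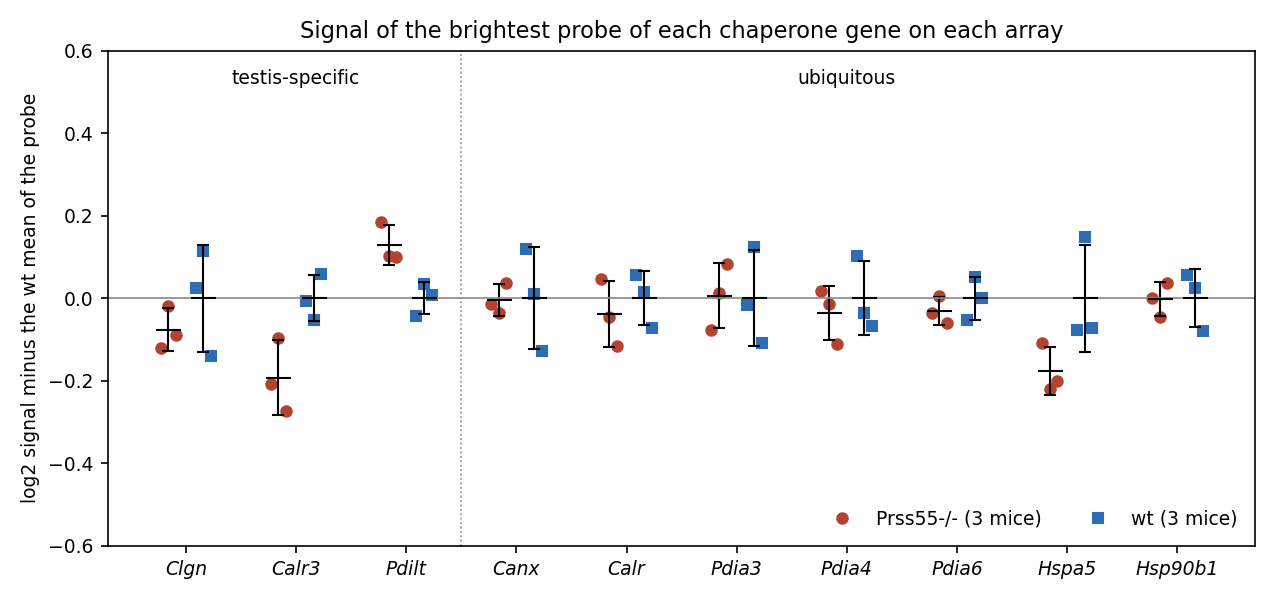
Log2 signal of the brightest probe of each chaperone gene on each array, as the distance from the wt mean of that probe, for 3 *Prss55*-/- and 3 wt mice, with the mean and SD of each genotype as bars. The *Calr3* and *Hspa5* points of *Prss55*-/- mice lie below all wt points and the *Pdilt* points above them, while the genotypes overlap for the other 7 genes.

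*Calr3*, the calreticulin homologue of male germ cells, had the lowest difference of the 10. Its signal was 15.24, 15.35 and 15.18 in *Prss55*-/- testis and 15.44, 15.40 and 15.51 in wt testis. Every *Prss55*-/- value lay below every wt value, the closest pair of the 2 genotypes being 0.043 apart. The difference was -0.19 (standard error 0.064, 95% interval -0.35 to -0.04, limma adjusted p = 0.191), or 0.875-fold. With each array left out in turn it lay between -0.24 and -0.15, with adjusted p values from 0.233 to 0.441.

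*Calr*, the ubiquitous paralogue, did not give 1 answer for both probes. The brighter probe, at position 1678, read 14.57, 14.48 and 14.41 in *Prss55*-/- testis and 14.58, 14.54 and 14.46 in wt testis, a difference of -0.04 (limma adjusted p = 0.776) with overlapping genotypes. The probe at position 719 read 12.30, 12.21 and 12.23 against 12.02, 12.08 and 12.18. Here all *Prss55*-/- values were above all wt values, and the difference was 0.15 (95% interval 0.0023 to 0.29, limma adjusted p = 0.256). Neither probe passed the adjusted threshold, and the difference between the probes was not tested.

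*Clgn*, the calnexin homologue of spermatocytes and spermatids, read 16.30, 16.40 and 16.33 in *Prss55*-/- testis and 16.44, 16.54 and 16.28 in wt testis. The genotypes overlapped because wt replicate 3 was the lowest of the 6 arrays. The difference was -0.08 (standard error 0.077, 95% interval -0.26 to 0.11, limma adjusted p = 0.627). It was smaller than the step of -0.21 from the mean of the other wt arrays to wt replicate 3, and without that array it was -0.14 (limma adjusted p = 0.245). Some genes near *Clgn* also set wt replicate 3 apart. *Scoc*, 13.5 kb away and named after its value was seen, read 12.11, 12.01 and 11.19 in wt testis. It read 11.20, 11.39 and 11.21 in *Prss55*-/- testis. Others did not: *Asf1b*, named in the same way, read 13.91, 13.99 and 13.89 in wt testis. The part of this in the *Clgn* result was not tested.

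*Canx*, the membrane lectin of all cells, overlapped on each of its 3 probes. The brightest, at position 3641, read 14.27, 14.25 and 14.33 in *Prss55*-/- testis and 14.41, 14.30 and 14.16 in wt testis. Its difference of -0.0045 (limma adjusted p = 0.980) turned to 0.010 with 75th percentile scaling, so it has no settled sign. The probes at positions 3062 and 1882 differed by 0.0026 and 0.09 (limma adjusted p = 0.984 and 0.531). The last of these spans 782 bases of the genome with 60 bases of sequence, as a probe across a splice junction does.

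*Pdilt*, the germ-cell isomerase homologue that is known to associate with CLGN, was the testis-specific gene with a positive difference. It read 15.62, 15.54 and 15.53 in *Prss55*-/- testis and 15.39, 15.47 and 15.44 in wt testis. All 3 *Prss55*-/- values were above all 3 wt values. The difference was 0.13 (standard error 0.050, 95% interval 0.0074 to 0.25, limma adjusted p = 0.240), or 1.09-fold, and it lay between 0.10 and 0.15 with each array left out.

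The round spermatid markers lay on the same side as *Pdilt* and on the other side from *Clgn* (-0.08) and *Calr3* (-0.19). Their summed signal on the linear scale ran from 186435 to 194267 on the *Prss55*-/- arrays and from 170689 to 182733 on the wt arrays. Their median difference was 0.11, with 0 of 6 genes past the limma adjusted threshold. At an unadjusted p under 0.05 in limma there were 3 of 6, against 20.0% of all tested genes. The sums of the spermatocyte and elongating spermatid markers overlapped, with medians of 0.04 and -0.02. The part of the spermatid markers in the *Pdilt* result was not tested.

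The ubiquitous isomerases differed little by their brightest probes. *Pdia3*, the partner of both lectins, read 14.06, 14.15 and 14.22 in *Prss55*-/- testis and 14.12, 14.26 and 14.03 in wt testis, a difference of 0.0065 (limma adjusted p = 0.973). *Pdia4* read 8.16, 8.13 and 8.03 against 8.24, 8.11 and 8.07, a difference of -0.04 (limma adjusted p = 0.797). In both genes the lowest wt value was that of replicate 3 and the genotypes overlapped. *Pdia6*, which is known to bind BiP and to act on the stress sensor IRE1, was read by 4 probes. The brightest, at position 1511, read 14.67, 14.71 and 14.65 against 14.66, 14.76 and 14.71, a difference of -0.03 (limma adjusted p = 0.771). The probe at position 1871, which lies further along the transcript, read 10.54, 10.55 and 10.53 against 10.39, 10.46 and 10.37. Those values did not overlap, and the difference was 0.13 (95% interval 0.02 to 0.25, limma adjusted p = 0.209). The remaining *Pdia6* probes, at position 87 and at position 141 of another transcript record, differed by -0.01 and 0.0050 (limma adjusted p = 0.949 and 0.977).

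*Hspa5*, which encodes the main chaperone of the ER lumen, read 15.54, 15.43 and 15.45 in *Prss55*-/- testis and 15.57, 15.80 and 15.57 in wt testis. Its values did not overlap, but the gap between the genotypes was 0.032, and wt replicate 2 stood above the other wt arrays. The difference was -0.18 (standard error 0.078, 95% interval -0.37 to 0.01, limma adjusted p = 0.288), or 0.885-fold. Without wt replicate 2 it was -0.10 (limma adjusted p = 0.441). *Hsp90b1*, the HSP90 of the ER, had 2 probes of unlike spread. The brighter, at position 2515, read 15.61, 15.57 and 15.65 against 15.67, 15.63 and 15.53, a difference of -0.0019 (limma adjusted p = 0.989) that turned to 0.029 with 75th percentile scaling. The other, at position 884, read 15.62, 15.04 and 15.38 against 15.10, 15.25 and 15.11. It had the widest spread of all 17 probes in *Prss55*-/- testis (SD 0.29), so that its difference of 0.19 (limma adjusted p = 0.511) has an interval up to 0.55, or 1.47-fold.

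**Figure D2:**
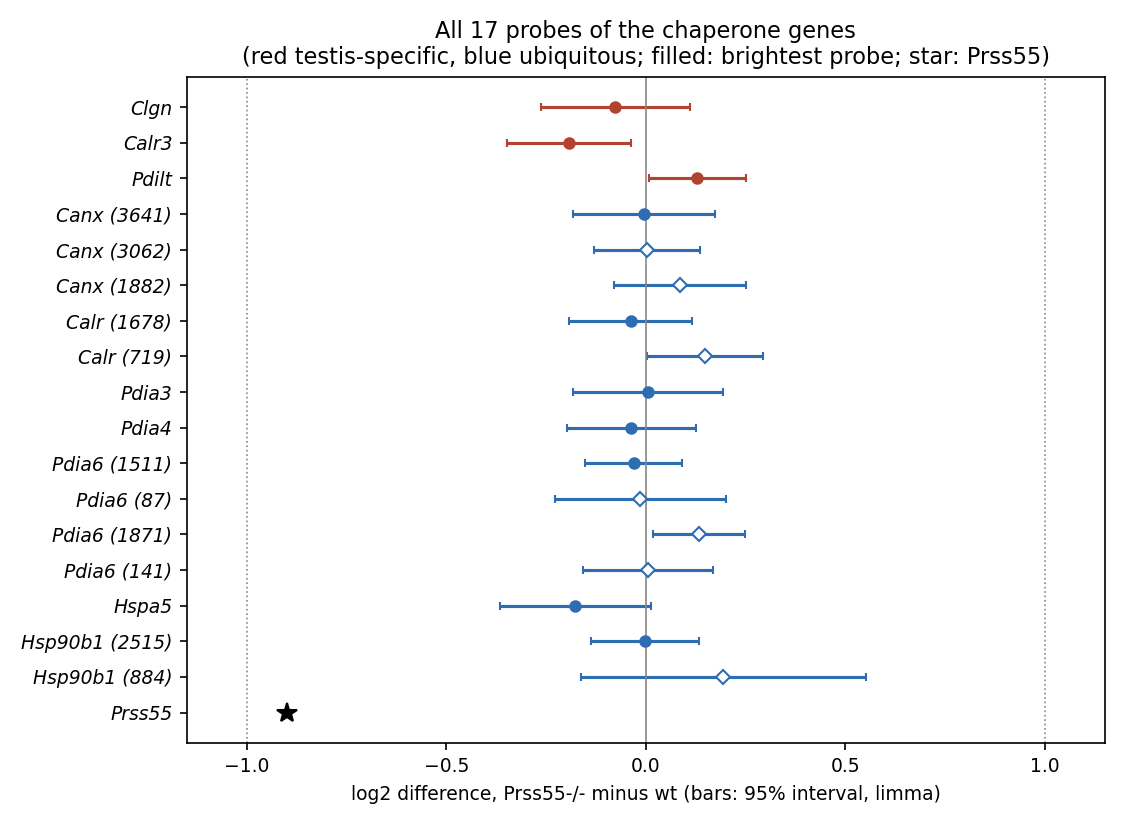
Log2 difference between *Prss55*-/- and wt testis (3 mice each) for all 17 probes, with 95% intervals from limma, the first base of the probe in its transcript in brackets, and the *Prss55* probe as a star at -0.90. All 17 intervals lie between -0.37 and 0.55, and probes of *Calr* (1678 and 719) and *Pdia6* (1511 and 1871) sit on different sides of 0.

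The 5 chaperone genes with an ERSE differed by between -0.18 (*Hspa5*) and -0.0019 (*Hsp90b1*) on their brightest probes, and none passed the adjusted threshold. Of the 15 further tested genes with the element, 0 passed it in limma and the median difference was 0.00013. An unadjusted p under 0.05 was found for 4 of the 15, against 20.0% of all tested genes. Those 4, named here after their values were seen, were *Creld2*, an ER folding gene, at 0.16, *Zfp57* at 0.30, *Spats2l* at -0.21 and *Acnat2* at -0.65 (limma adjusted p from 0.149 to 0.189). The values of genes that share the element thus lay on both sides of 0.

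The question of whether testis-specific chaperones moved apart from their ubiquitous relatives was put to the ratio of each pair within an array, where a factor common to the array cancels. The log2 ratio of *Clgn* to *Canx* was 2.02, 2.15 and 2.00 in *Prss55*-/- testis and 2.04, 2.24 and 2.12 in wt testis. Its change was -0.07 (standard error 0.074), and the genotypes overlapped. The ratio of *Calr3* to *Calr* was 0.67, 0.87 and 0.76 against 0.86, 0.86 and 1.05, a change of -0.15 (standard error 0.088), with an overlap at *Prss55*-/- replicate 2. The ratio of *Pdilt* to *Pdia3* was 1.55, 1.38 and 1.31 against 1.27, 1.21 and 1.41, a change of 0.12 (standard error 0.094), with an overlap at wt replicate 3. A ratio of 2 probes depends on how each binds, so only its change between genotypes can be read.

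None of the 3 changes in ratio stood out from the spread between mice. The two-sided exact permutation tests gave p = 0.4, 0.3 and 0.3, and 0.4 for all 3 after adjustment over the pairs, where 3 mice against 3 cannot go below 0.1. With the mean of all probes in place of the brightest, the change for *Calr3* and *Calr* was -0.25 (exact permutation p = 0.1, the smallest possible), since the *Calr* probe at position 719 then counts as much as the other. *Pdilt* changed by 0.17 against *Pdia4* and by 0.16 against *Pdia6*, both without overlap (exact permutation p = 0.1 each, the smallest possible). The ratio of *Pdilt* to *Pdia6* was 0.94, 0.82 and 0.88 in *Prss55*-/- testis and 0.73, 0.71 and 0.73 in wt testis, the tightest wt values of the 5 ratios (SD 0.014). As groups, the testis-specific genes had a median difference of -0.08 and the ubiquitous genes one of -0.03, and the former held both the lowest and the highest difference of the 10.

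**Figure D3:**
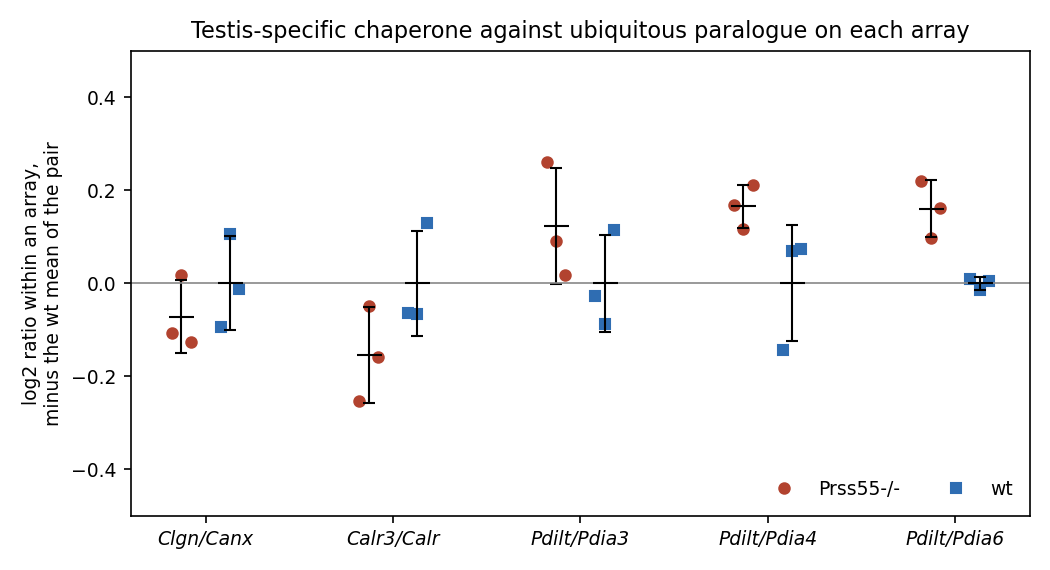
Change in the log2 ratio of a testis-specific to a ubiquitous chaperone within each array, as the distance from the wt mean of the pair, with the mean and SD of 3 *Prss55*-/- and 3 wt mice as bars. The genotypes overlap for *Clgn*/*Canx*, *Calr3*/*Calr* and *Pdilt*/*Pdia3* and do not for *Pdilt* against *Pdia4* (0.17) and *Pdia6* (0.16).

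The wider folding machinery gave 0 calls in limma as well. Of 62 other ER folding and quality control genes (oxidases, co-chaperones, glycan trimming enzymes, ER-associated degradation), 61 were tested. In limma 7 of 61 had an unadjusted p under 0.05, 2 higher and 5 lower, against 20.0% of all tested genes. The methods' t-test gave 10 of 61, against 3487 of 19181 over all tested genes. The median difference of the list was -0.038, with 41 of 61 genes lower in *Prss55*-/- testis, beside 9727 of 19181 over all tested genes. With 75th percentile scaling 36 of 61 in the list were lower, and its median was -0.028. The median over all tested genes was -0.0023 in the main setting and 0.017 with that scaling. The 3 largest differences were those of *Txndc12* (ERp18, a thioredoxin-like protein), *Ppic* (cyclophilin C, a prolyl isomerase) and *Kdelr3* (a receptor that returns ER proteins). *Txndc12* differed by -0.21 (limma adjusted p = 0.185), *Ppic* by -0.21 (0.227) and *Kdelr3* by -0.18 (0.460).

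The genes of the unfolded protein response, the signalling that raises ER chaperones when folding fails, did not pass the threshold either. Of 23 listed, 22 were tested and 0 passed the limma adjusted threshold. By limma and by the t-test 2 of 22 had an unadjusted p under 0.05. Over all tested genes the share was 20.0% in limma and 3487 of 19181 by the t-test. The median was -0.034, and -0.0025 with 75th percentile scaling, beside -0.0023 and 0.017 over all tested genes. *Ppp1r15b*, a regulatory subunit of the eIF2α phosphatase, read 11.18, 11.33 and 11.13 in *Prss55*-/- testis and 11.51, 11.39 and 11.48 in wt testis, without overlap. Its difference of -0.25 (limma adjusted p = 0.149) was the largest, before *Atf4*, a transcription factor of the response, at -0.19 (limma adjusted p = 0.291) and *Creb3l1* at 0.18 (limma adjusted p = 0.570). The other gene under an unadjusted p of 0.05 was *Xbp1*, the target of IRE1, at -0.13 (limma adjusted p = 0.249), named after its value was seen.

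A further list of 13 genes held *Adam1b* and genes that the study's text links to mature ADAM3 or to sperm without it. It is not limited to clients or partners of the chaperones. Of the 13 genes 12 were tested, since no probe carries the name *Pmis2*. None of the 12 passed the limma adjusted threshold. An unadjusted p under 0.05 was found for 4 of 12 in limma and by the t-test. Over all tested genes the share was 20.0% in limma and 3487 of 19181 by the t-test. *Adam3*, whose product is a client of the germ-cell chaperones, read 16.72, 16.49 and 16.51 in *Prss55*-/- testis and 16.84, 16.86 and 16.82 in wt testis. The values did not overlap, and the difference was -0.26 (limma adjusted p = 0.137). With each array left out in turn its limma adjusted p ran from 0.038 to 0.364. The lowest came without *Prss55*-/- replicate 1 (difference -0.34), where 659 of all genes passed in place of 267. *Adam1a*, which encodes the partner of ADAM2 in the fertilin of the testis, differed by 0.20 (limma adjusted p = 0.225). *Prss37*, the fourth, differed by -0.18 (limma adjusted p = 0.158) and was named after its value was seen.

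*Rnase10*, an RNase A family gene known from the epididymis, had the largest difference of the 12. It read 7.29, 4.64 and 5.44 in *Prss55*-/- testis, where replicate 2 was not well above background, and 8.60, 8.80 and 8.71 in wt testis. With that array set to its lowest signal well above background, the mean was 6.61-fold lower in *Prss55*-/- testis. This value allows for that array only, not for the spread between mice or the background correction. The difference of the measured means was -2.91 (limma adjusted p = 0.092) and, with normexp background correction, -1.79 (limma adjusted p = 0.021). Over the fits with 1 array less, the limma adjusted p ran from 0.0043 to 0.289. The lowest came without *Prss55*-/- replicate 1, the brightest of its genotype. There the mean, with replicate 2 set in the same way, was 10.4-fold lower. The summed epididymis markers, of which 2 of 6 were tested, ran from 166 to 195 on the *Prss55*-/- arrays and from 145 to 193 on the wt arrays, and their part in this difference was not tested.

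**Figure D4:**
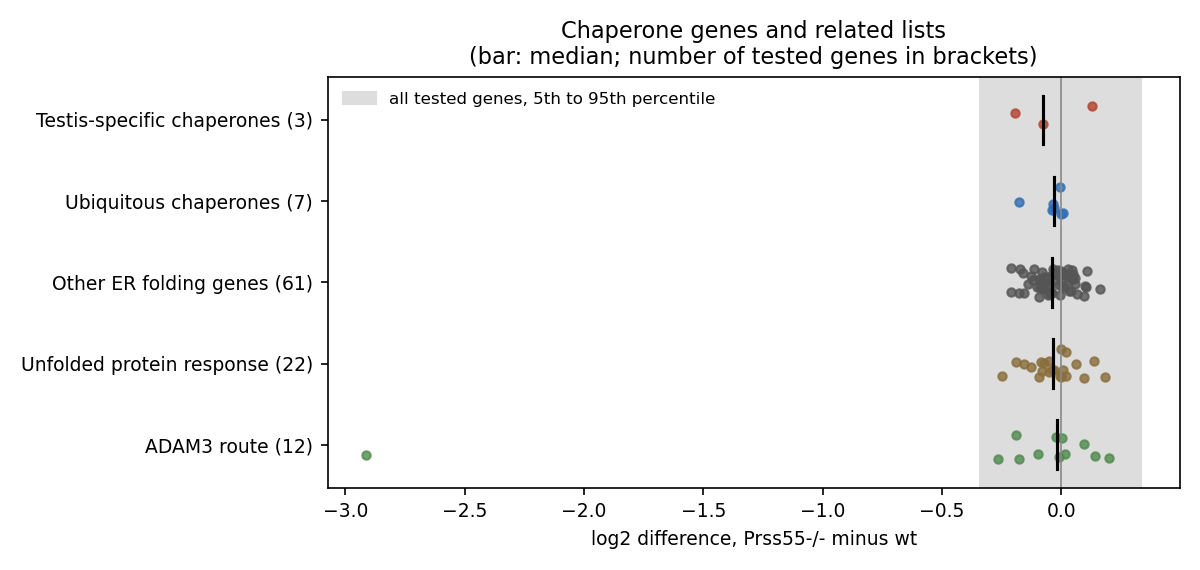
Log2 difference between *Prss55*-/- and wt testis (3 mice each) of the brightest probe of each tested gene in 5 groups, with the number of genes in brackets, the median as a bar and the 5th to 95th percentile of all tested genes (-0.34 to 0.33) in grey. All but *Rnase10*, at a measured -2.91 with 1 array not well above background, lie inside the grey band.

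The chaperone genes were then set beside the genes that lie next to them. Within 1 Mb of the probe on build mm9, 6 of the 10 had 0 neighbours past the limma adjusted threshold. *Calr* had 1 of 57, *Nacc1* at -0.71 (limma adjusted p = 0.010). Without wt replicate 3, where 302 of all genes passed in place of 267, *Calr* had 4, and without any other array between 0 and 2. Some genes near *Calr* set wt replicate 3 apart from the other wt arrays. *Klf1*, 62.7 kb away and named after its value was seen, read 11.93, 12.02 and 6.47 in wt testis. *Pdia3* had 8 of 45 neighbours past the threshold, 6 higher and 2 lower (17.8%), and *Pdia6* 4 of 16, all higher (25.0%), beside the 1.39% of all genes. The brightest probes of *Pdia3* and *Pdia6* themselves differed by 0.0065 and -0.03.

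The neighbours of *Pdia3* on chromosome 2 differed by up to 1.02 in size. *Serinc4*, 13.3 kb away, read 6.16, 6.48 and 6.51 in *Prss55*-/- testis and 7.49, 7.24 and 7.49 in wt testis, a difference of -1.02 (limma adjusted p = 0.024). *Spg11*, 616 kb away, differed by -0.97 (limma adjusted p = 0.0025) and *AV039307*, 571 kb away, by 0.61 (limma adjusted p = 0.016). The closest called gene, named after its value was seen, was *Ell3* at 1.36 kb with 0.52 (limma adjusted p = 0.039). Near *Pdia6* on chromosome 12, *Greb1*, 612 kb away, differed by 1.84 (limma adjusted p = 0.00060), *Gm9229*, 908 kb away, by 1.85 (limma adjusted p = 0.027) and *E2f6*, 458 kb away, by 0.94 (limma adjusted p = 0.0025). The count for *Pdia3* changed with the arrays used: with *Prss55*-/- replicate 2, *Prss55*-/- replicate 3 or wt replicate 1 left out it was 1. It fell to 2 when wt replicate 2 was left out. Leaving out wt replicate 3 gave 7 and *Prss55*-/- replicate 1 gave 8. For *Pdia6* it was 2 without *Prss55*-/- replicate 2 or 3 and between 3 and 5 without any other array. The count over all genes also moved in these fits. From 267 it fell to 48, 34, 51 and 103 without *Prss55*-/- replicates 2 and 3 and wt replicates 1 and 2. It was 659 without *Prss55*-/- replicate 1 and 302 without wt replicate 3.

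**Figure D5:**
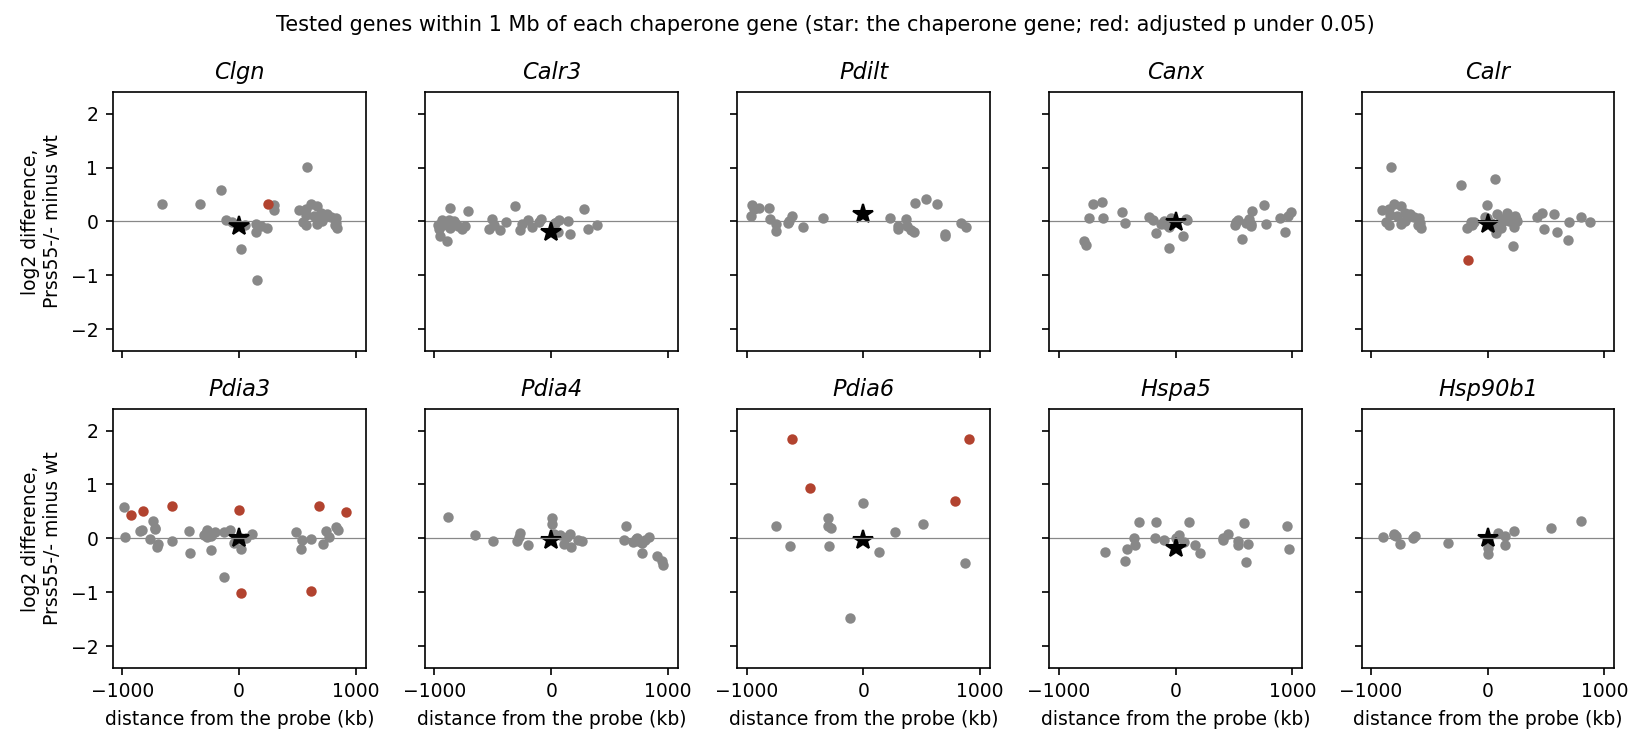
Log2 difference between *Prss55*-/- and wt testis (3 mice each) of the tested genes within 1 Mb of each chaperone gene, by distance from its brightest probe, with the chaperone as a star and genes with a limma adjusted p under 0.05 in red. Red points are most frequent around *Pdia3* (8 of 45 genes) and *Pdia6* (4 of 16), whose own stars lie near 0.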

How the data were processed

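Total RNA of whole testis from 3 *Prss55*-/- and 3 wt mice was labelled with Cy3 and hybridized to whole mouse genome arrays (4 × 44k, Agilent). The authors deposited 1 table of spots per array, made with Agilent Feature Extraction 10.7 (per the submitters' processing notes) and holding a background-corrected linear intensity, and a matrix of log2 values normalized by the quantile method, whose columns correlate with the values used here at 0.99998 or more. No column of fold changes or p-values was used.

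The 43379 spots that are not controls were read, spots called outliers were set aside, a floor of 1 was set, log2 values were brought to common quantiles, and repeat spots were averaged (41174 probes). The 28606 probes that passed background on all 3 arrays of a genotype were compared by limma 3.58.1 under R 4.3.3 (moderated, two-sided, Benjamini-Hochberg). The probe with the highest mean over the 6 arrays stood for a gene. Ratios were compared by exact permutation tests coded in Python 3.11.15 and adjusted with scipy 1.17.1, and plots were drawn with matplotlib 3.10.9. The number of arrays limits the precision.

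Named are *Prss55*, all 10 chaperone genes with every probe, the 3 genes of each further list with the largest difference where fewer than 3 passed, and up to 3 called neighbours of a chaperone gene. Genes outside these rules are marked as chosen after their values were seen. The result for 1 called neighbour is not reported here. The members and lists were chosen with earlier results of these data known. Array positions are those of the files on mm9, and promoters are those of RefSeq on GRCm38.p6. Replicate numbers did not pair the samples.

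Lists of markers for 10 cell types (spermatogonia, spermatocytes, round and elongating spermatids, Sertoli, Leydig, peritubular and vascular cells, macrophages, blood, epididymis) had 49 tested genes and 0 past the limma adjusted threshold. Their median differences lay between -0.62 (Leydig cells) and 0.15 (epididymis), and the summed signals did not overlap in 3 lists: round spermatids, peritubular and vascular cells (19564 to 20293 in *Prss55*-/- against 21255 to 22502 in wt testis) and macrophages (2621 to 2806 against 2826 to 2972).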

Additional observations from a re-analysis of the deposited data

How the results depend on the processing

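Normalization, background correction, the filter, the test, slide as a random block, the replicate block, the probe that stands for a gene and each array left out were varied one at a time. Over 150 values of the 10 chaperone genes under 15 alternatives, 0 passed the adjusted threshold and the lowest adjusted p was 0.174. The sign changed in 19 of the 150 values, in 6 genes. *Canx* turned to 0.010 with 75th percentile scaling, 0.00035 with normexp and 0.028 with the mean of its probes, *Hsp90b1* to 0.029 with scaling and 0.096 with the mean, *Pdia4* to 0.020 with normexp, and with the mean *Calr* to 0.055 and *Pdia6* to 0.024. With each array left out, values lay between -0.070 and 0.056 for *Canx*, -0.048 and 0.068 for *Pdia3*, -0.070 and 0.014 for *Pdia4*, and -0.041 and 0.026 for *Hsp90b1*. *Clgn*, *Calr3*, *Pdilt* and *Hspa5* kept their signs in all 15.

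The count of ADAM3 route genes was 1 with normexp (*Rnase10*) and between 0 and 2 with arrays left out (*Adam3* and *Rnase10* without *Prss55*-/- replicate 1). Chosen after seeing the data were other windows for the neighbours, which gave 2 for *Pdia3* and 1 for *Pdia6* at 0.5 Mb and 15 and 4 at 2 Mb, and the difference of *Rnase10*, -2.91 in the report, which was -1.79 with normexp and -3.68 without *Prss55*-/- replicate 1, each a difference of measured means with 1 *Prss55*-/- array not well above background. The cause of these changes was not tested. With arrays left out the changes in ratio lay between -0.12 and -0.02 for *Clgn*/*Canx*, -0.20 and -0.09 for *Calr3*/*Calr*, and 0.05 and 0.18 for *Pdilt*/*Pdia3*.

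Samples with the same replicate number did not deviate together (correlations -0.05, -0.02 and -0.11). With the replicate block, 0 of the 10 genes had an unadjusted p under 0.05, against 3014 of 19181 over all tested genes. In that fit 12 of all genes passed the adjusted threshold in place of 267. The changes in ratio were the same by construction (-0.07, -0.15 and 0.12). All other counts for all genes more than 1.5 times from 267 were 110 without the filter, 67 by the methods' t-test, and 659, 48, 34, 51 and 103 without *Prss55*-/- replicates 1, 2 and 3 and wt replicates 1 and 2 (302 without wt replicate 3).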
